A study of Mus musculus with 24 samples.

Results

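This account concerns female C57BL/6 mice aged 9 to 10 weeks and asks which RNAs of the kidney inner medulla differed 72 h after cisplatin. The cisplatin group had 5 libraries, FC1 to FC5, from mice given a single intraperitoneal injection of cisplatin at 15 mg/kg dissolved in saline (100 µl). The saline group had 7 libraries, FS1 to FS7, from mice injected once with saline alone and collected at the same time. A gene entered the comparison when it had 10 or more counts in at least 5 of these 12 libraries, which held for 17244 of the 55416 gene identifiers in the count table. Just inside this limit were 338 genes with 10 or more counts in exactly 5 libraries (median of their mean counts, 9.17), and just outside it 368 genes with 4 such libraries (median 8.12). The series has 24 libraries, and the other 12 come from male mice under the same treatments. The labels do not say that each library came from a separate mouse, and p-values here reflect only how much these libraries vary, which may be technical.

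Cisplatin is a platinum drug that crosslinks DNA and is well known for injuring the kidney tubule, above all the proximal tubule of the outer kidney. The inner medulla is the innermost zone, built of thin limbs and collecting ducts in a matrix-rich interstitium with a high salt and urea content. RNA measured in a piece of tissue reflects both how many cells of each type are present and how much RNA each holds, and in these bulk samples fewer cells of a type and less RNA per cell cannot be told apart.

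In all 5 cisplatin libraries the epithelial calcium channel genes Trpv6 and Trpv5 were above, and the hemoglobin genes far below, every saline library. Few other genes separated the groups so fully. In the edgeR quasi-likelihood test, with Benjamini-Hochberg adjustment over all tested genes and a threshold of 0.05, 12 genes rose and 8 fell, which is 0.116% of the genes tested (0.0696% higher and 0.0464% lower). For all 20, the 5 cisplatin libraries lay outside the range of the 7 saline libraries on the same side. Over all tested genes that pattern was seen for 149 (0.864%), of which 88 were higher (0.51%) and 61 lower (0.354%). At an unadjusted p under 0.05 there were 2979 genes (17.3%). With FC4 and FC5 left out 9 genes passed (0.0522%), all of them among the 20. The number passing the adjusted threshold moved strongly with single libraries. It was 38 without FC1, 69 without FC2, 69 without FC3, 15 without FC4 and 10 without FC5. Without FS1 to FS7 in turn it was 12, 13, 10, 11, 10, 11 and 12.

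A much larger group of genes left the saline range in FC4 and FC5 alone. That pattern is less strict than all 5 libraries outside the range, so the sizes of the groups are not directly comparable. In FC4 and FC5, 1832 and 1407 genes were at least 2-fold from the saline mean, against 453, 379 and 466 in FC1, FC2 and FC3. The saline libraries, which contribute to that mean, had 85 to 360 such genes, except FS6 with 669. Total counts (in units of 1000000) were 18.8 to 23.89 per cisplatin library and 18.08 to 26.11 per saline library, and FC4 (20.98) and FC5 (23.77) lay inside the saline range of depth. Ribosomal protein genes held 3.929% of the counts in FC4 and 3.596% in FC5, against 2.467% to 2.747% in FC1 to FC3 and 2.136% to 2.646% under saline. Collecting duct principal cell markers (16 of 16 tested) and thin limb markers (7 of 7) were abundant in every library. The principal cell markers summed to 8952 to 13673 CPM (counts per 1000000 counts of a library, after scaling) under saline. Under cisplatin they summed to 8035 to 10971 CPM, with FC1 (8538) and FC2 (8035) below the saline range. Much of that sum was the single gene Aqp2, at 5107 CPM in FC1 and 4567 CPM in FC2. The median log2 distance of these genes from the saline mean was -0.23 in FC1 and -0.033 in FC2. Both lay inside the saline range of -0.28 to 0.40, and FC5 (-0.32) lay below it. The thin limb markers summed to 5956 to 7198 CPM under saline and 3497.6 to 6531.5 CPM under cisplatin. For these, FC2 (5645.6), FC4 (3497.6) and FC5 (5227.5) lay below the saline range. The thick ascending limb list, whose home is the outer medulla, varied widely among the saline libraries: it summed to 1354 CPM in FS6 and 3132 CPM in FS1, against 12550.0 CPM in FS5 and 4196 to 9952 CPM under cisplatin.

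**Figure D1:**
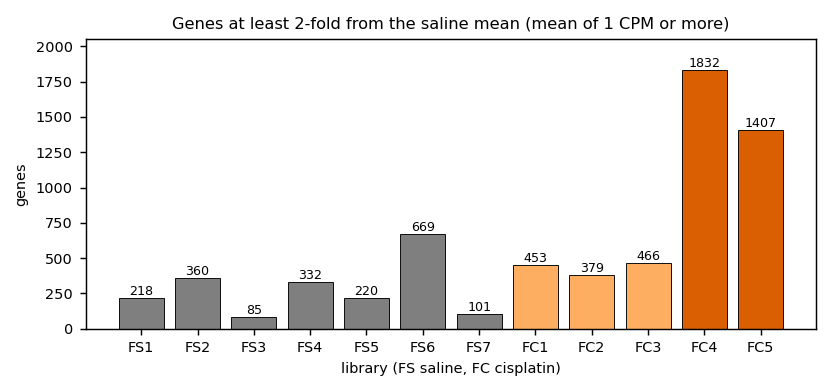
Number of genes (vertical axis) at least 2-fold from the mean of the saline libraries in each of the 12 libraries, among genes with a mean of 1 CPM or more; grey bars are saline, light orange FC1 to FC3, dark orange FC4 and FC5. FC4 (1832) and FC5 (1407) stand above all the others. FC1 to FC3 (379 to 466) lie above every saline library (85 to 360) except FS6 (669).

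The sequences just upstream of some of the genes that separated the groups are printed here. Trpv6 and Trpv5, and the globins Hba-a1 and Hbb-bs, are shown because each passed the test together with a neighbour of its own family, and 2310043M15Rik and D730005E14Rik because they share a matched motif with Trpv6. Each is the 250 bases before the annotated start in RefSeq (build GRCm38.p6), written 5′ to 3′ on the gene's own strand, with capitals marking matches to the motifs described after them.
Trpv6, chr6:41636406-41636655, minus strand: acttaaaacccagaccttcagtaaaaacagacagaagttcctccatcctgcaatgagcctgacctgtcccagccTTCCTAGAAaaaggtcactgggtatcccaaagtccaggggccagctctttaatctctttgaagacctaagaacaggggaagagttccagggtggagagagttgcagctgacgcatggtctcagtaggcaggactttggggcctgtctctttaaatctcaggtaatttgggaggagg
Trpv5, chr6:41680724-41680973, minus strand: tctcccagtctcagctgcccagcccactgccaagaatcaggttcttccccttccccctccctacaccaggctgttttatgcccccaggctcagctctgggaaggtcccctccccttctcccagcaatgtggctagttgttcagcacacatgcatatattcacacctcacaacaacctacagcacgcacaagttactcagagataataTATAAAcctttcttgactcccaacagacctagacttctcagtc
2310043M15Rik, chr16:93794902-93795151, minus strand: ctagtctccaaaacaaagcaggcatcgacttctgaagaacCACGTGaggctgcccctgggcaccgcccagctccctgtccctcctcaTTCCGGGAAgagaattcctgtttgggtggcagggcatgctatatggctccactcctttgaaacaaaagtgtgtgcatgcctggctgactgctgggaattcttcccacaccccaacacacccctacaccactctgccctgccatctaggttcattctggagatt
D730005E14Rik, chr15:79893139-79893388, minus strand: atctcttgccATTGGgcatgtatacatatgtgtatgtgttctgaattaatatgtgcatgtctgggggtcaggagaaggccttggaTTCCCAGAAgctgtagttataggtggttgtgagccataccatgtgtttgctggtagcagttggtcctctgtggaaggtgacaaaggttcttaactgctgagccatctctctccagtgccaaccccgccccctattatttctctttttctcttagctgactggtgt
Hba-a1, chr11:32283422-32283671, plus strand: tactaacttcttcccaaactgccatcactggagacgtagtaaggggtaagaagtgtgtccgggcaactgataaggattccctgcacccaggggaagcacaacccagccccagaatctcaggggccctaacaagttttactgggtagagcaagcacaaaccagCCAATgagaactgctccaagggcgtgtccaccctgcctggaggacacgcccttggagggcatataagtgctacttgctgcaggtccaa
Hbb-bs, chr7:103827929-103828178, minus strand: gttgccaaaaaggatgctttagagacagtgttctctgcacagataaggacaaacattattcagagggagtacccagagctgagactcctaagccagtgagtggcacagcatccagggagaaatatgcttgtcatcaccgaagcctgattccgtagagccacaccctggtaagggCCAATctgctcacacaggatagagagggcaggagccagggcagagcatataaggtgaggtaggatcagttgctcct
Trpv6 and Trpv5 lie in the same orientation on chromosome 6, 15.8 kb apart by the annotation used. The search covered both strands of the 250 bases for the STAT site (TTCNNNGAA), the AP-1 site (TGANTCA), the E-box (CACGTG), the TATA box (TATAAA), the CCAAT box (CCAAT), and, by name only, an interferon-stimulated response element, a p53 half-site, a vitamin D response element and an NF-kB site. Matches of different motifs could overlap, and none of those printed above do. A STAT site was matched in Trpv6 (176 bases before the start), 2310043M15Rik (163 bases) and D730005E14Rik (165 bases), and in 6.03% of the 15377 promoters of tested genes. CCAAT boxes stand upstream of Hba-a1 and Hbb-bs, as in 34.5% of all promoters searched, and a TATA box upstream of Trpv5, as in 6.96%. Sequences were found for 17 of the 20 genes, and not for Cfi, Gm42047 and Oas2. A match is a string of letters and not a measured binding site.

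Trpv6 and Trpv5 encode closely related channels through which calcium enters epithelial cells from the tubule fluid. Trpv6 (ENSMUSG00000029868) stood at 36.4, 47.7, 23.0, 52.8 and 42.8 CPM in FC1 to FC5, against 4.14 to 9.29 CPM (median 4.46) under saline. The lowest cisplatin library, FC3, was still above the highest saline library, FS4. The mean was 5.52 ± 1.91 CPM under saline (SD, n = 7) and 40.5 ± 11.5 CPM under cisplatin (SD, n = 5), and Trpv6 rose by 2.88 ± 0.24 on the log2 scale (SE, adjusted p = 6.42e-05). Trpv5 (ENSMUSG00000036899) was close to absent under saline, at 0.0826 to 0.468 CPM (median 0.193), and measured 4.57, 2.43, 1.01, 5.95 and 9.13 CPM in FC1 to FC5. The groups did not overlap, and the means were 0.219 ± 0.121 CPM under saline (SD, n = 7) and 4.62 ± 3.16 CPM under cisplatin (SD, n = 5), so that Trpv5 rose by 4.37 ± 0.50 on the log2 scale (SE, adjusted p = 0.00137). Both held without FC4 and FC5, with log2 fold changes of 2.69 (adjusted p = 0.0025) and 3.58 (adjusted p = 0.0108).

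These channels were the 2 of 19 tested genes of calcium and magnesium handling that passed the test. The list had a median log2 fold change of -0.18, against 0.0053 over all genes tested, and 6 of its 19 genes had a positive value. Calb1, the calbindin that buffers calcium inside distal tubule cells, was at 3.21 ± 2.81 CPM under saline (SD, n = 7) and 1.503 ± 1.05 CPM under cisplatin (SD, n = 5). For Calb1 the log2 difference was -1.11 ± 0.54 (SE, adjusted p = 0.313). S100g, a second small calcium buffer, had a log2 difference of -0.021 ± 0.39 (SE, adjusted p = 0.983), and Slc8a1, the sodium-calcium exchanger, one of -0.27 ± 0.17 (SE, adjusted p = 0.414). Vdr, the vitamin D receptor, stood at 12.7 ± 4.79 CPM under saline (SD, n = 7) and 9.17 ± 3.22 CPM under cisplatin (SD, n = 5). For Vdr the log2 difference was -0.47 ± 0.26 (SE, adjusted p = 0.37). None of these 4, which were picked from the list after their values were seen, passed the test. Markers of the distal convoluted and connecting tubule, where Trpv5 is best known, summed to 57.2, 76.1, 80.7, 187 and 124 CPM in FC1 to FC5 and to 38.1 to 107 CPM under saline, over the 5 tested genes of 6 listed. The median log2 distance of the same genes was 0.26 in FC4 and -0.91 in FC5, the latter below the saline range of -0.64 to 0.44, so the sum and the median differ in direction in FC5; Klk1, a kallikrein gene, was the member above the saline range in FC4 and FC5 alone. In FC1, FC2 and FC3, where Trpv5 was also above every saline library, that sum lay within the saline range. The part of such tissue in the rise of Trpv5 was not tested. Ephb6, a receptor-like gene whose annotated span lies 0.115 kb from that of Trpv6 on the other strand, stood at 13.6, 14.3, 12.8, 20.2 and 11.3 CPM in FC1 to FC5 against 9.67 to 10.6 CPM (median 10.2). It lay above the saline range in all 5 libraries with a far smaller log2 difference of 0.51 ± 0.13 (SE, adjusted p = 0.168), so it did not pass the test. The sources used here do not say whether counting took the strand into account, so reads of overlapping or adjoining genes on opposite strands may not be separated.

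**Figure D2:**
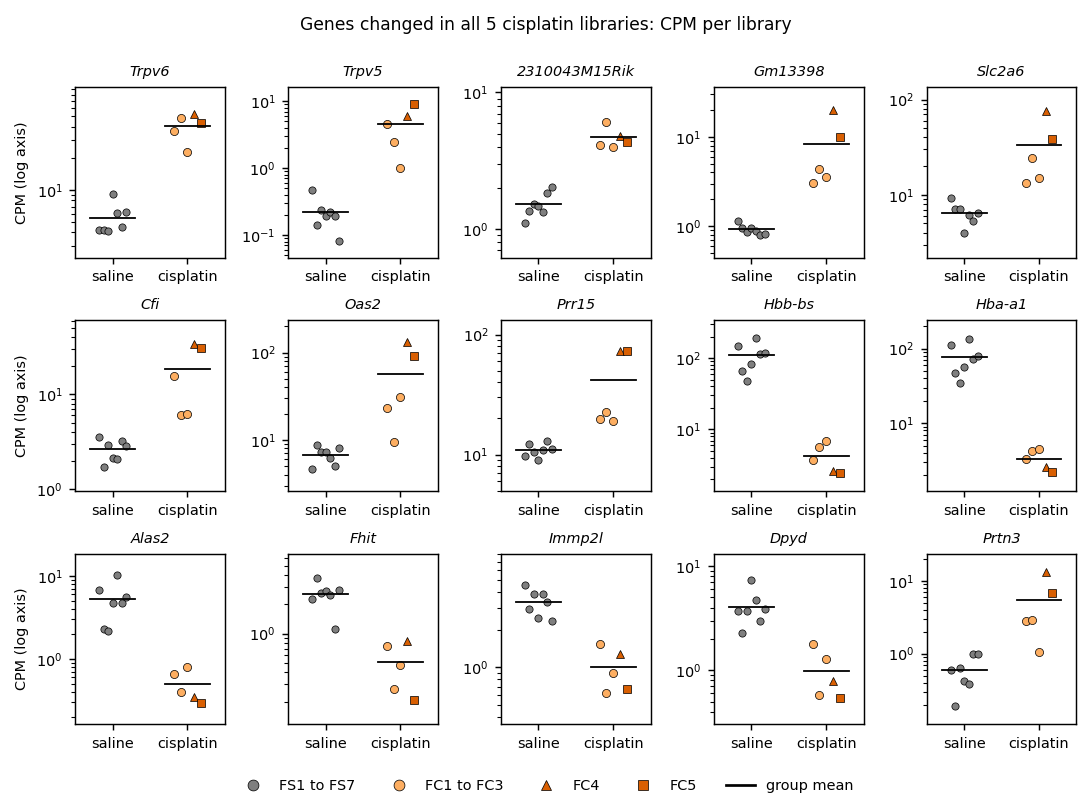
Level of 15 of the 20 genes that passed the test, in CPM on log axes, one point per library (7 saline in grey, FC1 to FC3 in light orange, FC4 as triangles and FC5 as squares in dark orange), with lines at the group means. In every panel the 5 cisplatin points lie on one side of the 7 saline points. For Trpv6, 2310043M15Rik and the hemoglobin genes FC1 to FC3 lie near FC4 and FC5. For Prr15 FC1 to FC3 lie nearer to saline, and for Oas2 FC1 and FC2 do.

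The hemoglobin genes and Alas2, the erythroid enzyme that starts heme synthesis, fell. Hbb-bs (ENSMUSG00000052305), an adult beta-globin, was at 48.4 to 189 CPM (median 114) in the saline libraries and at 3.70, 5.71, 6.92, 2.65 and 2.47 CPM in FC1 to FC5. Its mean was 109 ± 48.7 CPM under saline (SD, n = 7) and 4.29 ± 1.95 CPM under cisplatin (SD, n = 5), a log2 fold change of -4.68 ± 0.40 (SE, adjusted p = 6.42e-05). Hba-a1 (ENSMUSG00000069919), an adult alpha-globin, was at 34.9 to 134 CPM (median 71.6) under saline and at 3.31, 4.18, 4.52, 2.56 and 2.22 CPM in FC1 to FC5, with a log2 fold change of -4.51 ± 0.36 (SE, adjusted p = 6.42e-05). FC4 and FC5 were the lowest for both, and FC1 to FC3 were also far below FS3, the lowest saline library. Hbb-bt and Hba-a2, the second adult beta- and alpha-globin genes, fell by 4.76 ± 0.44 and 4.20 ± 0.39 on the log2 scale (adjusted p = 0.000124 and 0.000131). Within each pair the copies are nearly identical, so the division of reads between Hbb-bs and Hbb-bt, and between Hba-a1 and Hba-a2, is uncertain. Alas2 was at 2.15 to 10.3 CPM (median 4.66) under saline and at 0.653, 0.405, 0.798, 0.344 and 0.293 CPM in FC1 to FC5, and it fell by 3.38 ± 0.44 (adjusted p = 0.00489). The 4 globins passed again without FC4 and FC5 (log2 fold changes of -4.33, -4.76, -4.26 and -3.83 for Hbb-bs, Hbb-bt, Hba-a1 and Hba-a2), and Alas2 did not (-3.07, adjusted p = 0.115).

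Of the 9 genes on the erythroid list, 6 were tested and 5 fell. The exception was Rhag, an erythroid membrane protein gene, with 0.872 ± 0.403 CPM under saline (SD, n = 7) and 1.01 ± 0.446 CPM under cisplatin (SD, n = 5) and a log2 difference of 0.21 ± 0.36 (SE, adjusted p = 0.786). Epb42, a red cell membrane skeleton gene, was under the count filter, with 0 to 2 counts per cisplatin library and 3 to 8 per saline library. Summed over the 6 tested genes, erythroid RNA was 7.37 to 14.8 CPM under cisplatin and 99.9 to 396 CPM under saline. The macrophage and monocyte list (13 of 14 tested) summed to 151 to 337 CPM under cisplatin and 97.3 to 345 CPM under saline, and the 2 tested of 10 lymphocyte markers to 2.76 to 9.79 CPM and 4.04 to 16.2 CPM, so both overlapped. Of the lymphocyte markers under the count filter, Cd8a had 433 counts in FS1 and 0 to 10 in each of the other 11 libraries.

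Apart from Trpv6 and Trpv5, 3 further genes passed the test as higher both with and without FC4 and FC5. 2310043M15Rik (ENSMUSG00000097768, chromosome 16), a noncoding RNA annotated as antisense within Dop1b, was at 4.14, 6.12, 3.99, 4.77 and 4.36 CPM in FC1 to FC5 and at 1.11 to 2.02 CPM (median 1.46) under saline. The 5 cisplatin values were close together, FC2 being the highest, and the log2 fold change was 1.62 ± 0.19 (SE, adjusted p = 0.00167). Dop1b itself stood at 50.9 ± 9.17 CPM under saline (SD, n = 7) and 53.7 ± 12.4 CPM under cisplatin (SD, n = 5). For Dop1b the log2 difference was 0.077 ± 0.16 (SE, adjusted p = 0.824). Gm13398 (ENSMUSG00000087364, chromosome 2), an antisense transcript by its annotation class, was at 3.05, 4.41, 3.56, 20.2 and 9.92 CPM in FC1 to FC5 and at 0.801 to 1.15 CPM (median 0.887) under saline. Its log2 fold change was 3.15 ± 0.43 (SE, adjusted p = 0.00601), and FC4 was the highest library by far. Its neighbour Slc2a6, a member of the sugar transporter family that lies 9.29 kb away on the other strand, was at 13.3, 24.4, 15.1, 75.7 and 38.3 CPM in FC1 to FC5 and at 3.93 to 9.19 CPM (median 6.36) under saline. It too rose, by 2.37 ± 0.37 on the log2 scale (SE, adjusted p = 0.0248). Without FC4 and FC5 it was still higher but missed the threshold (log2 fold change 1.45, adjusted p = 0.0702). Cacfd1, which adjoins Slc2a6 on its other side, had a log2 difference of 0.13 ± 0.081 (SE, adjusted p = 0.433) and did not pass. Prr15, a proline-rich protein gene, was at 19.8, 22.5, 19.2, 72.6 and 73.4 CPM in FC1 to FC5 and at 8.94 to 13.1 CPM (median 10.98) under saline, with a log2 fold change of 1.92 ± 0.33 (SE, adjusted p = 0.0437) that was 0.91 in FC1 to FC3 alone (adjusted p = 0.0217).

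The other 6 genes that rose passed the test with all 5 libraries and not without FC4 and FC5. All 6, and Slc2a6, Alas2, Fhit, Immp2l and Dpyd, are named because they are among the 20; only Cfi and Oas2 of these also come under the rule for named genes. Cfi encodes complement factor I, the protease that inactivates C3b. Its level was 15.6, 6.07, 6.17, 33.7 and 30.5 CPM in FC1 to FC5, against 1.72 to 3.53 CPM (median 2.85) under saline. Cfi rose by 2.79 ± 0.41 on the log2 scale (SE, adjusted p = 0.0125). It was the only one of 17 tested complement genes to pass, and the list's median log2 fold change was 0.049. Oas2 makes the second messenger that activates RNase L in the antiviral response. It was at 23.4, 9.36, 31.3, 130.3 and 91.6 CPM in FC1 to FC5 and at 4.68 to 8.81 CPM (median 7.195) under saline. Oas2 rose by 3.08 ± 0.49 on the log2 scale (SE, adjusted p = 0.0248), with a log2 fold change of 1.66 without FC4 and FC5 (adjusted p = 0.115).

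Sh3bp2, an adaptor protein of immune and bone-resorbing cells, was at 10.1, 13.7, 7.87, 24.6 and 27.2 CPM in FC1 to FC5 and at 3.40 to 6.07 CPM (median 5.15) under saline. Its log2 fold change was 1.72 ± 0.28 (SE, adjusted p = 0.0258). Gm42047 (ENSMUSG00000110631, chromosome 8), a long noncoding RNA, was at 10.2, 11.8, 13.6, 9.10 and 12.1 CPM in FC1 to FC5, against 1.20 to 5.27 CPM (median 3.13). Gm42047 rose by 1.72 ± 0.27 on the log2 scale (SE, adjusted p = 0.0248). For Gm42047 FC4 was the lowest of the 5 cisplatin libraries, and the log2 fold change was 1.78 without FC4 and FC5 (adjusted p = 0.122). Prtn3, a serine protease known from neutrophil granules, was at 2.83, 2.88, 1.06, 13.2 and 6.91 CPM in FC1 to FC5 and at 0.192 to 0.992 CPM (median 0.595) under saline, with a log2 fold change of 3.13 ± 0.54 (SE, adjusted p = 0.0412). Of the 10 neutrophil markers listed, 1 passed the count filter, and the granule genes Mpo and Elane had 0 to 3 and 0 to 6 counts per library. The annotated span of Prtn3 overlaps that of Plppr3 on the other strand, which stood at 13.6 ± 1.07 CPM under saline (SD, n = 7) and 21.2 ± 7.39 CPM under cisplatin (SD, n = 5). For Plppr3 the log2 difference was 0.64 ± 0.17 (SE, adjusted p = 0.172). D730005E14Rik (ENSMUSG00000115902, chromosome 15) was at 9.85, 16.6, 9.20, 20.01 and 16.2 CPM in FC1 to FC5 and at 4.55 to 7.82 CPM (median 6.33) under saline. D730005E14Rik rose by 1.18 ± 0.20 on the log2 scale (SE, adjusted p = 0.0373). It overlaps Apobec3, an antiviral cytidine deaminase gene on the same strand by the annotation used, which stood at 127, 169, 107, 263 and 228 CPM in FC1 to FC5 and had a log2 difference of 0.82 ± 0.18 (SE, adjusted p = 0.12), so the reads of this pair cannot be told apart with certainty.

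Besides the erythroid genes, 3 genes fell, and each spans more than 500 kb of the genome. Fhit, a nucleotide hydrolase gene at a common fragile site, was at 1.11 to 3.69 CPM (median 2.62) under saline and at 0.741, 0.270, 0.479, 0.836 and 0.209 CPM in FC1 to FC5. It fell by 2.31 ± 0.37 on the log2 scale (adjusted p = 0.0258). Immp2l, a subunit of the mitochondrial inner membrane peptidase, was at 2.36 to 4.51 CPM (median 3.36) and at 1.52, 0.630, 0.904, 1.278 and 0.670 CPM in FC1 to FC5, and fell by 1.73 ± 0.27 (adjusted p = 0.0248). Dpyd, the first enzyme of pyrimidine breakdown, was at 2.30 to 7.32 CPM (median 3.70) and at 1.79, 0.585, 1.277, 0.787 and 0.544 CPM in FC1 to FC5, and fell by 2.03 ± 0.36 (adjusted p = 0.0482). These are low levels, and none of the groups overlapped. Without FC4 and FC5 the log2 fold changes were -2.33, -1.69 and -1.74 for Fhit, Immp2l and Dpyd, and none passed (adjusted p = 0.115, 0.17 and 0.481).

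Genes spanning 500 kb or more stood lower, as a class, in FC2, FC4 and FC5. Among tested protein-coding genes the median log2 fold change was 0.086 for the 3498 genes spanning under 10 kb, -0.10 for the 1243 spanning 100 to 200 kb, -0.17 for the 590 spanning 200 to 500 kb and -0.30 for the 106 spanning 500 to 1000 kb. The 32 genes of 1000 kb or more had a median of -0.15. Of the 106 genes spanning 500 to 1000 kb, 86 had a negative value (81.1%), against 36.5% of those under 10 kb. Without FC4 and FC5 the medians of these classes were -0.24 and 0.038. By library, the 500 to 1000 kb class had a median log2 distance from the saline mean of -0.077, -0.35, -0.078, -0.46 and -0.58 in FC1 to FC5. FC1 and FC3 thus lay inside the range of the saline libraries, in which FS6 had -0.27, and FC2, FC4 and FC5 lay below it. In shorter classes the order of the libraries was different. At 200 to 500 kb only FC5 (-0.23) was below FS6 (-0.22), with FC2 at -0.19, FC3 at -0.15 and FC4 at -0.19. At 100 to 200 kb FC3, FC4 and FC5 (-0.16, -0.17 and -0.17) were below FS6 (-0.10), and FC2 (-0.051) was not. The annotation that gave the spans may not be the release used for counting, and the part in this pattern of the ribosomal protein genes, which are short and held more of the counts in FC4 and FC5, was not tested. Of the 61 genes below the saline range in all 5 cisplatin libraries, 5 span more than 500 kb, and of the 88 above it, 0 do. Among all tested protein-coding genes 138 of 14323 (0.963%) span 500 kb or more. All 5 cisplatin libraries were below the saline range for 3.62% of those 138 and for 0.356% of the 14323. Fhit, Immp2l and Dpyd, described above, are among the genes behind the 3.62%, so that share is no independent support for a pattern in long genes.

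**Figure D3:**
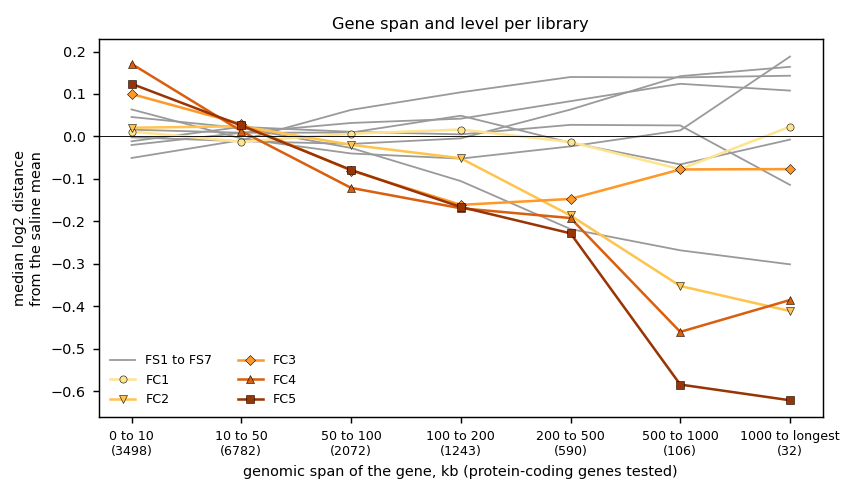
Median log2 distance from the saline mean (vertical axis) of tested protein-coding genes in 7 classes of genomic span (horizontal axis, kb, number of genes in brackets), 1 line per library. In the class of 500 to 1000 kb, FC2, FC4 and FC5 (-0.35, -0.46 and -0.58) lie below every saline library, while FC1 (-0.077) and FC3 (-0.078) lie above FS6 (-0.27).

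Other genes lay outside the saline range in all 5 cisplatin libraries without passing the test, some of them much further out in FC4 and FC5. Those described next were named after their values were seen, except Spp1. Spp1 encodes osteopontin, a secreted phosphoprotein of stressed tubules. It was at 4194, 2048, 2993, 9341 and 7672 CPM in FC1 to FC5 and at 1387 to 2038 CPM (median 1697) under saline, a log2 difference of 1.63 ± 0.30 (SE, adjusted p = 0.0601); FC2 exceeded the highest saline library only narrowly. Csf1, the growth factor of macrophages, was at 28.7, 23.8, 45.3, 63.9 and 52.7 CPM in FC1 to FC5 and at 16.3 to 23.5 CPM (median 20.7). For Csf1 the log2 difference was 1.04 ± 0.20 (SE, adjusted p = 0.0696). Bcl3, a nuclear partner of NF-kB, was at 13.8, 11.5, 10.5, 46.1 and 33.6 CPM in FC1 to FC5 and at 5.22 to 8.29 CPM (median 6.98). For Bcl3 the log2 difference was 1.74 ± 0.33 (SE, adjusted p = 0.0643). Ccl2, the chemokine that draws monocytes, went the other way: it was at 2.27, 2.07, 1.92, 1.47 and 1.76 CPM in FC1 to FC5 and at 2.44 to 6.46 CPM (median 3.60). For Ccl2 the log2 difference was -1.14 ± 0.25 (SE, adjusted p = 0.12). Of the genes below the saline range, Ephx2, the soluble epoxide hydrolase, was at 31.9, 48.7, 48.5, 35.6 and 29.0 CPM in FC1 to FC5 and at 58.1 to 92.3 CPM (median 65.9). For Ephx2 the log2 difference was -0.86 ± 0.15 (SE, adjusted p = 0.0523). Ren1, the renin gene, was at 0.915, 2.02, 1.97, 1.77 and 2.09 CPM in FC1 to FC5 and at 2.35 to 9.64 CPM (median 4.38). For Ren1 the log2 difference was -1.46 ± 0.34 (SE, adjusted p = 0.134).

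Among the 88 genes above the saline range in all 5 cisplatin libraries, 34 had a log2 fold change of 1 or more and 9 were at least 2-fold from the saline mean in every one of the 5. Among the 61 below it, the numbers were 20 and 12. All 149 kept their direction without FC4 and FC5, which the choice of these genes fixes. When the 12 male libraries were added to the fit, 29 genes passed higher (0.168%) and 13 lower (0.0754%), among them 22 of the 88 and 10 of the 61. DESeq2 on the 12 female libraries gave 238 higher (1.38%) and 140 lower (0.812%), among them 99 of the 149.

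Genes that left the saline range in FC4 and FC5 while FC1 to FC3 stayed inside it numbered 855 above (4.96%) and 793 below (4.6%). Of these 1648 genes 0 passed the test (edgeR), 541 had an unadjusted p under 0.05, and 20 passed with DESeq2. Over all genes tested, 17.3% had an unadjusted p under 0.05 and 2.19% passed with DESeq2. The 1648 genes were chosen by the same values that were tested, so these counts are no result about them. Their values are given as a description. At least 2-fold in both libraries were 147 of those above and 192 of those below. Lrg1, an acute-phase glycoprotein gene, was at 0.958, 1.03, 1.12, 38.6 and 10.3 CPM in FC1 to FC5, against 0.718 to 1.89 CPM (median 1.19) under saline. Mt1, a metallothionein that binds zinc, copper and other metals, was at 35.3, 67.9, 53.3, 721 and 297 CPM in FC1 to FC5 and at 11.8 to 108 CPM (median 35.3). Smoc2, a secreted matricellular protein gene, was at 9.45, 9.85, 8.99, 110.5 and 69.9 CPM in FC1 to FC5 and at 7.67 to 13.3 CPM (median 8.82). For each of the 3, FC1 to FC3 lay among the saline libraries, and FC4 exceeded FC5. B830017H08Rik, Gm20518 and Cryba2, the last a lens crystallin gene, had the same pattern at low levels, with FC4 and FC5 at 10.5 and 4.98, 14.8 and 8.38, and 6.24 and 7.87 CPM.

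The genes furthest below the saline range in FC4 and FC5 included matrix components of the inner medullary interstitium. Vcan, the proteoglycan versican, was at 141, 163, 179, 16.4 and 30.2 CPM in FC1 to FC5 and at 132 to 416 CPM (median 299) under saline. Tnc, the matrix glycoprotein tenascin C, was at 248, 157, 291, 37.6 and 32.2 CPM in FC1 to FC5 and at 153 to 407 CPM (median 294). Npy1r, a neuropeptide Y receptor, was at 179.7, 177, 149.7, 21.1 and 32.1 CPM in FC1 to FC5 and at 82.8 to 487 CPM (median 237). In all 3, FC4 and FC5 were below FS2, the lowest saline library, and FC1 to FC3 were above it. Slc7a12, an amino acid transporter gene, was at 2.53, 2.83, 6.01, 0.787 and 0.586 CPM in FC1 to FC5, Ahrr, the repressor of the aryl hydrocarbon receptor, at 26.8, 27.7, 21.5, 7.03 and 6.99 CPM in FC1 to FC5, and D030044L04Rik at 1.44, 1.75, 2.45, 0.0492 and 0.168 CPM in FC1 to FC5.

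**Figure D4:**
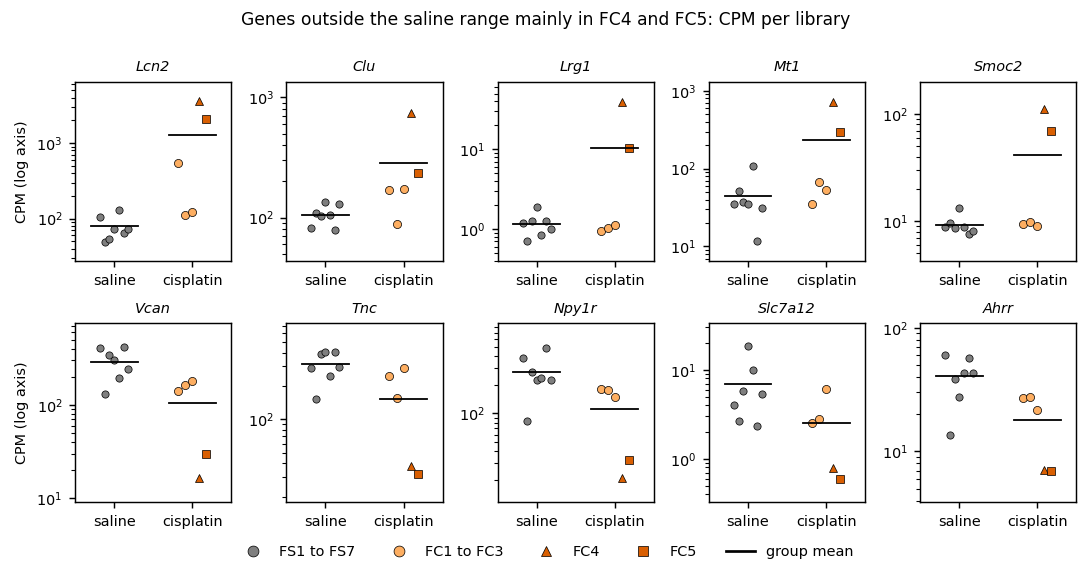
Level in CPM (log axes) of 10 genes, 1 point per library, with lines at the group means and symbols as in the plot of the genes that passed the test. FC4 and FC5 (dark orange) lie outside the saline range in every panel; FC1 to FC3 lie inside it for 8 of the 10 genes and partly above it for Lcn2 and Clu.

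Secreted markers of kidney injury were led by FC4 and FC5. Lcn2 encodes neutrophil gelatinase-associated lipocalin, which injured tubules secrete. It was at 551, 112, 123, 3567 and 2101 CPM in FC1 to FC5 and at 49.6 to 131 CPM (median 72.3) under saline. FC2 and FC3 lay inside the saline range, FC1 was above it, and the log2 difference of 4.04 ± 0.72 (SE, adjusted p = 0.0523) missed the threshold; without FC4 and FC5 it was 1.74 (adjusted p = 0.556). Clu, the chaperone clusterin, was at 169, 88.6, 175, 745 and 235 CPM in FC1 to FC5 and at 78.6 to 135 CPM (median 105). For Clu the log2 difference was 1.41 ± 0.39 (SE, adjusted p = 0.174). Havcr1, the kidney injury molecule of proximal tubules, was under the count filter, with 0 to 16 counts per library, the highest in FC5. Krt20, a keratin of injured tubules that was named after its values were seen, was also under it, with 23 counts in FC4, 14 in FC5 and 0 to 7 elsewhere. Cdkn1a, the cell cycle inhibitor p21, was at 38.6, 70.5, 56.1, 127 and 141 CPM in FC1 to FC5 and at 28.1 to 63.3 CPM (median 39.1). For Cdkn1a the log2 difference was 0.96 ± 0.30 (SE, adjusted p = 0.191). Aqp2, the vasopressin-regulated water channel of the collecting duct, was at 5107, 4567, 5622, 7334 and 6772 CPM in FC1 to FC5 and at 5095 to 8945 CPM (median 5924). For Aqp2 the log2 difference was -0.14 ± 0.19 (SE, adjusted p = 0.716).

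The interferon response list showed 1 gene passing of 35 tested, Oas2, and 34 of the 35 had a positive log2 fold change. Its median was 0.68, against 0.0053 over all genes tested. Without FC4 and FC5 the median was 0.26, against 0.00054, and 32 were positive. By library the median log2 distance from the saline mean was 0.17, 0.03, 0.55, 1.42 and 0.89 in FC1 to FC5, and -0.40 to 0.24 in the saline libraries. FC3, FC4 and FC5 lay above that range, FC1 and FC2 inside it. At an unadjusted p under 0.05 the list had 26 genes, all higher, against 17.3% of all genes tested, and 16 passed with DESeq2. Irf7, the transcription factor that amplifies the response, was at 38.7, 28.6, 57.9, 109 and 58.3 CPM in FC1 to FC5 and at 22.9 to 37.4 CPM (median 31.4), a log2 difference of 0.90 ± 0.25 (SE, adjusted p = 0.174) that did not pass; it was picked from the list after its values were seen.

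Genes of other damage and inflammation lists did not pass the test. For comparison, 17.3% of all genes tested had an unadjusted p under 0.05 and 2.19% passed with DESeq2. Of all genes tested, 4.96% lay above the saline range in FC4 and FC5 alone and 0.51% in all 5 cisplatin libraries. List counts near these shares are no result about a list. On the p53 list, the genes that p53 switches on after DNA damage, 0 of 31 tested genes passed (edgeR; 8 at an unadjusted p under 0.05, all higher, and 5 with DESeq2), and the median was 0.14 (0.0094 without FC4 and FC5). Aen, a p53-induced nuclease, was above the saline range in all 5 libraries, at 39.2, 41.8, 35.9, 84.1 and 81.2 CPM in FC1 to FC5 against 26.8 to 35.0 CPM (median 31.2), and Gdf15, Fas, Tnfrsf10b and Pidd1 in FC4 and FC5 alone. The regulated cell death list had 0 of 20 passing (9 at an unadjusted p under 0.05, all higher, and 0 with DESeq2) and a median of 0.28; Gpx4, Acsl4, Casp8, Pycard and Mlkl were above the range in FC4 and FC5 alone and Bcl2l11 in all 5. The IL-6, STAT3 and acute-phase list had 0 of 18 passing (5 at an unadjusted p under 0.05, all higher, and 3 with DESeq2), with median log2 distances of 1.22 in FC4 and 0.61 in FC5 against -0.10 to 0.31 in FC1 to FC3. The lists of NF-kB targets and chemokines (22 tested), NRF2 targets (16), platinum adduct repair (24) and cell cycle genes (24) had 0 genes passing in the edgeR test and 4, 0, 0 and 0 with DESeq2. At an unadjusted p under 0.05 there were 4 higher and 3 lower NF-kB genes, 8 higher NRF2 genes, 1 higher and 4 lower repair genes and 4 lower cell cycle genes. Their medians were 0.19, 0.27, -0.083 and -0.084. The repair list had median log2 distances of -0.23 in FC4 and -0.21 in FC5, below the saline range of -0.046 to 0.07, and the cell cycle list -0.30 and -0.095, against -0.17 to 0.32.

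Several lists of kidney function and of resident cells had negative medians and 0 genes passing (edgeR). Of the osmoprotective, endothelial and steroid receptor lists, 1 of 13, 5 of 13 and 3 of 7 genes had an unadjusted p under 0.05, all lower, against 17.3% of all genes, and 0 passed with DESeq2, against 2.19%. The osmoprotective genes driven by NFAT5, which let medullary cells live at high salt, had a median log2 distance of -1.02 in FC4 and -0.67 in FC5, against -0.33 to 0.15 in FC1 to FC3 and -0.28 to 0.19 under saline. In this list Akr1b3, the aldose reductase that makes sorbitol, was at 5851, 4705, 4270.3, 754 and 1781 CPM in FC1 to FC5 and at 4219 to 7198 CPM (median 5139), and Slc6a12, the betaine transporter, at 91.1, 81.7, 80.8, 11.7 and 19.6 CPM in FC1 to FC5 and at 64.4 to 146 CPM (median 102). For both, FC4 and FC5 lay below every saline library and FC1 to FC3 within their range; Hsph1 and Hspa4l, heat shock proteins, followed the same pattern. The endothelial list had 4 of 13 genes, Emcn, Eng, Pecam1 and Cdh5, below the range in FC4 and FC5 alone. The osmoprotective list likewise had 4 of 13, against 4.6% of all genes tested. The 7 steroid receptor genes all had negative values, with a median of -0.42 and, without FC4 and FC5, -0.35. By library their median log2 distance was -0.62 to -0.30 under cisplatin, which overlapped the saline range of -0.37 to 0.31 in FC2 only. Nr3c2, the mineralocorticoid receptor of the collecting duct, was at 26.6, 27.8, 27.8, 32.5 and 23.7 CPM in FC1 to FC5 and at 26.5 to 50.1 CPM (median 37.1), a log2 difference of -0.42 ± 0.13 (SE, adjusted p = 0.188); it was chosen after its values were seen.

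**Figure D5:**
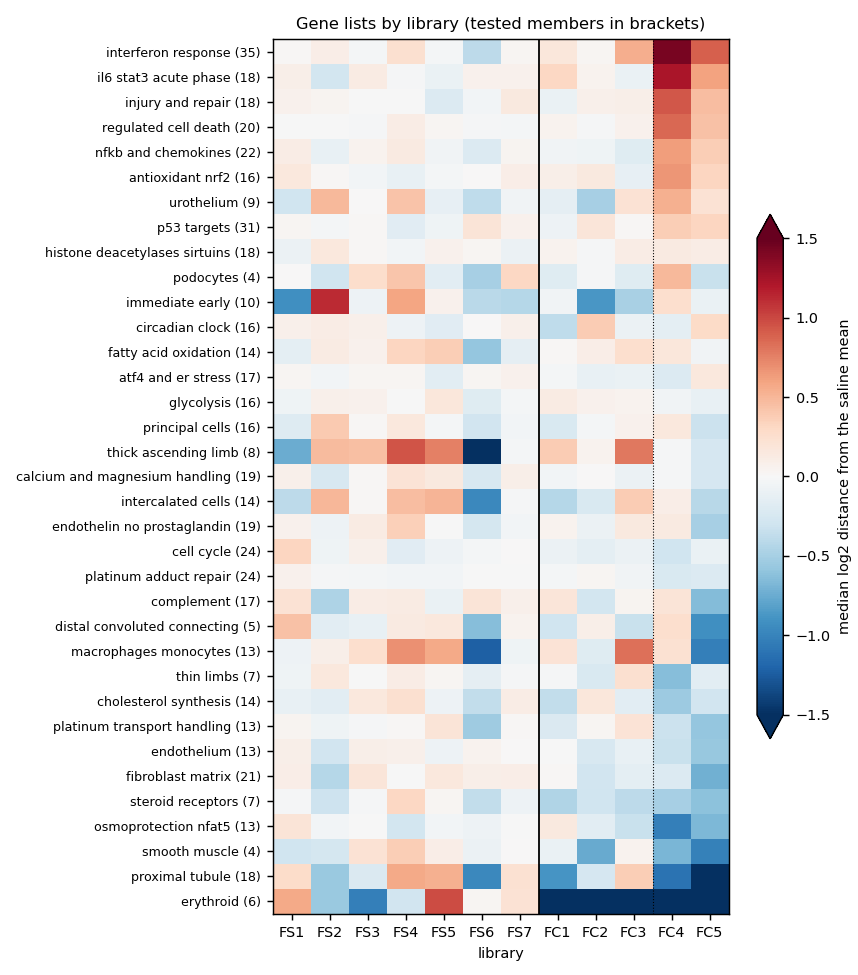
Median log2 distance from the saline mean (colour, red higher and blue lower, with the scale ending at 1.5 in both directions) of the tested members of each gene list with at least 4 tested genes, by library; lists are ordered by their mean in FC4 and FC5, and lines separate saline, FC1 to FC3 and FC4 to FC5. The erythroid list is low in all 5 cisplatin libraries, the interferon, acute-phase, injury and cell death lists are high in FC4 and FC5, and the thick ascending limb, macrophage and intercalated cell lists vary as much among the saline libraries as between the groups.

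Markers of neighbouring tissue varied within both groups. The proximal tubule list, whose cells lie outside the inner medulla, summed to 113, 188, 316, 122 and 85.2 CPM in FC1 to FC5 and 118 to 417 CPM under saline, with a median log2 fold change of -0.60 and 0 of 18 genes passing (2 at an unadjusted p under 0.05, and 0 with DESeq2). Slc34a1, the proximal phosphate transporter, was at 26.8 ± 7.69 CPM under saline (SD, n = 7) and 20.5 ± 14.0 CPM under cisplatin (SD, n = 5). For Slc34a1 the log2 difference was -0.39 ± 0.36 (SE, adjusted p = 0.596). Umod, which encodes uromodulin and marks the thick ascending limb, was at 2626, 1761, 3342, 2143 and 1655 CPM in FC1 to FC5 and at 291 to 6053 CPM (median 2757), the lowest value being FS6. Adgre1, the macrophage marker F4/80, was at 3.09, 2.47, 6.49, 1.38 and 0.921 CPM in FC1 to FC5 and at 1.95 to 6.28 CPM (median 3.66). Their part in the changes above was not tested beyond a fit with a tubule marker score as a covariate, in which 9 genes passed in place of 20.

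The same treatment was compared with the male libraries by a test of the difference between the sexes over all 24 libraries. Of 18121 genes tested, 0 differed at an adjusted p under 0.05 (edgeR; 782 genes, 4.32%, at an unadjusted p under 0.05, and 0 with DESeq2). All 20 genes had the same direction in males, and 18 passed there, where 20.6% of all genes did; the exceptions were Immp2l (-0.18 ± 0.40 in males, adjusted p = 0.778) and Fhit (-1.07 ± 0.41, adjusted p = 0.0642). For Immp2l the female log2 fold change minus the male one was -1.55 ± 0.58 (adjusted p = 0.945), and for Trpv6 it was -1.37 ± 0.42 (adjusted p = 0.945). The value was negative for every gene that rose, from -1.44 for Slc2a6 to -0.04 for Gm42047. For the hemoglobin genes and Alas2 it was positive, so these estimates of change were smaller in females. For Immp2l, Fhit and Dpyd the estimated fall was larger in females. None of the 20 passed, which does not show that the sexes responded equally.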

How the data were processed

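RNA from the inner medulla was measured by sequencing of poly(A)-selected libraries, per the labels' protocols. The authors deposited whole-number read counts per gene under Ensembl identifiers, and these counts were used as deposited. Per the submitters' processing notes, tools of the pipeline were featureCounts (Subread 2.0.1), DESeq2 1.28.1 and Trim Galore 0.6.7, on build mm10; the aligner, annotation release and strand setting were not stated there, and 2147 newer identifiers were absent from the annotation used for chromosomes and spans.

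Groups came from the sample labels. In R 4.3.3, genes with 10 or more counts in at least 5 of the 12 female libraries were scaled by TMM factors and tested with edgeR 4.0.16 (quasi-likelihood, no covariate; limma 3.58.1 is loaded with it). Adjusted p-values are Benjamini-Hochberg over all 17244 tested genes. CPM values are TMM-scaled, log2 distances use a prior count of 1, and the SE is the log2 fold change divided by the square root of the F statistic. The median log2 fold change over all genes was 0.0053. The common biological coefficient of variation was 0.236. Sex markers matched the labels in 12 of 12 libraries, and no library was a copy of another. The sex difference was tested over all 24 libraries. Alternatives were DESeq2 1.42.0, other scaling, other filters, all 24 libraries, a tubule marker covariate, a replicate block, and leaving libraries out. The fit was tested on simulated data.

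Named genes with a mean of 1 CPM or more were taken by rule. The first 12 in each direction came from those passing with all 5 cisplatin libraries outside the saline range and again without FC4 and FC5. The first 6 in each direction came from those outside it in FC4 and FC5 alone. Up to 4 passing members of each of 38 lists, members moving against their list's majority and 12 preset genes were added; other genes are said to be named for another reason. The members and lists were chosen with earlier results of these data known.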

Additional observations from a re-analysis of the deposited data

Results flagged for a closer look

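Of 88 groups of values examined (the 12 libraries' named genes and library measures, in each treatment group), 8 held a library whose gap to the nearest other library exceeded Dixon's limit; chance flags about 1 in 20 groups. In the saline group Trpv5 was at 0.468 CPM in FS1, against 0.0826 to 0.235 CPM in the other 6, and Trpv6 at 9.29 CPM in FS4, against 4.14 to 6.24 CPM; both values were below every cisplatin library. Hbb-bt was at 37.6 CPM in FS5, against 6.37 to 19.6 CPM, on the side away from cisplatin. B830017H08Rik was at 1.72 CPM in FS5, against 0.170 to 0.655 CPM, and Mt1 at 108 CPM in FS5, against 11.8 to 51.8 CPM. Smoc2 was at 13.3 CPM in FS4, against 7.67 to 9.53 CPM.

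In the cisplatin group Lrg1 was at 38.6 CPM in FC4, against 0.958 to 10.3 CPM in the other 4 libraries, and Clu at 745 CPM in FC4, against 88.6 to 235 CPM. No library was flagged for total counts, ribosomal or mitochondrial share, or the number of genes at least 2-fold from the saline mean.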

How the results depend on the processing

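The count of 20 genes, all of them outside the saline range in all 5 cisplatin libraries, moved with most alternatives. The number passing, and the number of these with all 5 libraries outside the range, were 378 and 99 with DESeq2, 95 and 48 with no filter, and 42 and 32 with all 24 libraries. Both numbers were 9 without FC4 and FC5, 9 without FS1 and FS6 and 9 when a score of tubule markers was added to the fit. Leaving out 1 library at a time gave 10 to 69 genes and 10 to 62 genes (69 without FC2 or FC3, and 10 without FC5, FS3 or FS5). The labels do not say what the replicate numbers mean. Same-numbered libraries of the groups had correlations of -0.238 to -0.0066, which cannot decide whether the numbers mark a shared day or batch. With the replicate block 3 and 3 genes passed. RLE scaling and filterByExpr kept both counts within 1.5 times. Of the 20 genes, 3 (Trpv6, Hbb-bt and Hba-a1) passed under all 21 alternatives, and 0 changed direction under any of them. The count of genes differing between the sexes was 0 in every alternative run. Without FC4 and FC5 the log2 differences of Lrg1, Cryba2, Slc34a1 and Adgre1, none of which passed, changed sign, to -0.17, -0.17, 0.051 and 0.041; that of Umod changed sign with that score (0.59) and ranged from -0.45 (without FS6) to 0.072 (without FS5) when 1 library was left out. The causes were not tested. Depth limits the low genes: Trpv5 under saline, Alas2 and Fhit under cisplatin, and Epb42 and Havcr1 rest on few counts per library. Trpv5, Alas2 and Fhit met the count rule through the group in which they were higher.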

Other observations

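Some genes under the count filter were high in 1 library each, as values with no comparison. The T cell genes Cd8a, Cd4, Cd3d and Cd3e had 433, 227, 77 and 67 counts in FS1, against 0 to 10, 1 to 24, 0 to 6 and 0 to 10 in the other 11 libraries. Slc7a11, the cystine transporter that feeds glutathione synthesis, had 259 counts in FC5 and 2 to 32 elsewhere. Il6 had 27 counts in FC5, 6 in FC4 and 0 to 4 elsewhere.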
